A study of Homo sapiens with 12 samples.

Results

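Oxidative phosphorylation genes were followed in 12 RNA-seq libraries of DU145, an established human prostate cancer line, with and without the small GTPase RAC1. The genes were found by symbol: the protein genes of the mitochondrial genome and the nuclear genes for subunits of complexes I to V. This gave 87 of the 56832 genes in the deposited table, 13 mitochondrially encoded and 74 nuclear encoded. Read literally, the wording of the rule on names ending in P and a digit would also drop MT-ATP6 and MT-ATP8, leaving 85, and both were kept because they are genes of complex V. All 87 passed the level filter of 1 TPM, the unit of the deposited values, which is per transcript length and scaled to the same total in each library.

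The RAC1-positive lines were parental DU145, not transfected, and sgNTC clones 1 and 2, both made with Cas9 and the non-target guide sgNTC_1. The knockout lines were sgRAC1 clone 1, made with the guide sgRAC1_1, and sgRAC1 clones 2 and 3, made with sgRAC1_2. Each clone was grown from a single cell, so a line stands for 1 clone, while the parental line was not cloned. All lines grew in RPMI with 10% serum, and each gave 2 biological replicates, where the replicate number is also the batch in the labels.

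RAC1 was at 46.2 TPM ± 9.14 (SD, n = 3 lines) in the knockout lines and 172 ± 4.60 (n = 3) in the RAC1-positive lines, or 26.9% of their level, and the libraries of the genotypes did not overlap. By an exact permutation test on line means, with both tails counted, p was 0.10, the lowest value possible with 3 lines a genotype. The sequencing depth is unknown, because TPM keeps none. In sgNTC clone 2 replicate 1, 13608 genes were listed above 0, against 20470 to 25156 in the other libraries. All 4 epithelial markers checked (EPCAM, KRT8, KRT18 and CDH1) were above 1 TPM, and fibroblast, leukocyte and endothelial markers summed to under 1 TPM in each library.

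Oxidative phosphorylation takes electrons from NADH at complex I and from succinate at complex II, passes them through complex III and cytochrome c to complex IV, where oxygen is reduced, and uses the proton gradient so built to make ATP at complex V. Complexes I, III, IV and V are mosaics of subunits from both genomes, while complex II is wholly nuclear encoded. Mitochondrial messages are cut from long transcripts of the whole circular genome, and the nuclear subunits are made in the cytosol and imported. Promoters of nuclear subunit genes are known for sites of NRF1, of ETS factors (NRF2, also called GABP) and of YY1.

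The stretches below show how the genomes differ in layout. In the mitochondrial genome MT-ATP8 and MT-ATP6 overlap, so a read from the shared bases belongs to both genes. The MT-ATP8 gene, chrM:8366-8572 on the plus strand (GRCh38, transcript from GENCODE 29), has 207 bases, and the last 46, in capitals, are also the first of MT-ATP6.
MT-ATP8: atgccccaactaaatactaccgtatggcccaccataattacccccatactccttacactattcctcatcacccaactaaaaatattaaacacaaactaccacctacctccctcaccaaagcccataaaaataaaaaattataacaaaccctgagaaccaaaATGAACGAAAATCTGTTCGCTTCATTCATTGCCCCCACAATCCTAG

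MT-ND4L overlaps MT-ND4 in the same way, by 7 of its bases. A pair of nuclear promoters is shown as examples of the other layout, from genes that the authors' deposited table calls lower in the knockout. Each runs from 120 bases before the start of transcription to 30 after it (RefSeq, GRCh38.p14). Capitals mark the letters GCGCATGC (NRF1) in NDUFS6, chr5:1801287-1801436 on the plus strand, and AAGATGGC (YY1) in SDHB, chr1:17054003-17054152 on the minus strand.
NDUFS6: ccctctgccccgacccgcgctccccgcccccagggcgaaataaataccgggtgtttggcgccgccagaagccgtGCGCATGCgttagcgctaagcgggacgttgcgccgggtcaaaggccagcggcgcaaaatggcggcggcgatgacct
SDHB: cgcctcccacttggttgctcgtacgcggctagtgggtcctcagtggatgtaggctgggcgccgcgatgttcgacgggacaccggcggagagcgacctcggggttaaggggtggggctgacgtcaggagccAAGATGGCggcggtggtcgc

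The motif in NDUFS6 begins 46 bases before the start, and the one in SDHB begins at base 11 of the transcript. Windows from 250 bases before to 50 after each start were searched on both strands in the 61 of 74 nuclear members that matched a RefSeq promoter, taking all windows of a gene and counting each motif on its own. The NRF1 letters stood in 14 members (23% against 3.68% of all 27305 genes with a promoter). The ETS letters CCGGAAGT stood in 11 (18% against 4.95%), and the YY1 letters in 12 (19.7% against 3.52%). At least 1 of the 3 motifs stood in 30 of the 61 members (49.2% against 11.2%). Of the 6 nuclear members called lower in the authors' deposited table, NDUFS6, SDHB and ATP5A1 held a match, while NDUFC1, NDUFS3 and UQCRFS1 held none of these letters in the window. A match is a description of the letters, not a test of binding.

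The mitochondrially encoded members made up a large part of the TPM total in every library. Their summed level ran from 75313 to 95519 TPM over the 12 libraries, or 7.53% to 9.55% of the TPM total. That of the 74 nuclear members ran from 17017 to 19571 TPM, or 1.70% to 1.96%. As TPM is per transcript length, these are not shares of RNA mass or of reads. The ratio of the mitochondrial to the nuclear sum was 4.84 ± 0.337 (SD, n = 3 lines) in the knockout and 4.51 ± 0.113 (n = 3) in the RAC1-positive lines. The lowest, median and highest ratios were 4.42, 4.88 and 5.16 in the knockout libraries and 3.99, 4.50 and 4.98 in the RAC1-positive ones, so the genotypes overlapped. In bulk RNA, the number of mitochondria per cell and the amount of RNA per mitochondrion cannot be told apart.

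Among the 13 mitochondrial members, MT-CO2, the core subunit of complex IV that receives electrons from cytochrome c, stood highest, with a median of 24883 TPM (range 21562 to 29261). Its lowest library was above the highest library of every other member. A middle tier followed, in which each range overlapped that of the next gene: MT-ND4 (median 8592 TPM), MT-ND2 (7950), MT-CO3 (7831), MT-ND4L (7120), MT-ATP6 (6966), MT-CYB (5931) and MT-ATP8 (5485). A lower tier, again apart, held MT-CO1 (median 3104 TPM), MT-ND5 (2621) and MT-ND1 (2354), whose ranges overlapped. MT-ND6 (1469 TPM) and MT-ND3 (1425) formed the lowest pair. Each of the 13 varied by less than 2-fold between its lowest and highest library. These TPM levels are per length, and the short MT-ATP8 and MT-ND4L share bases with their neighbours, so the part of their level that comes from shared reads was not tested.

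**Figure D1:**
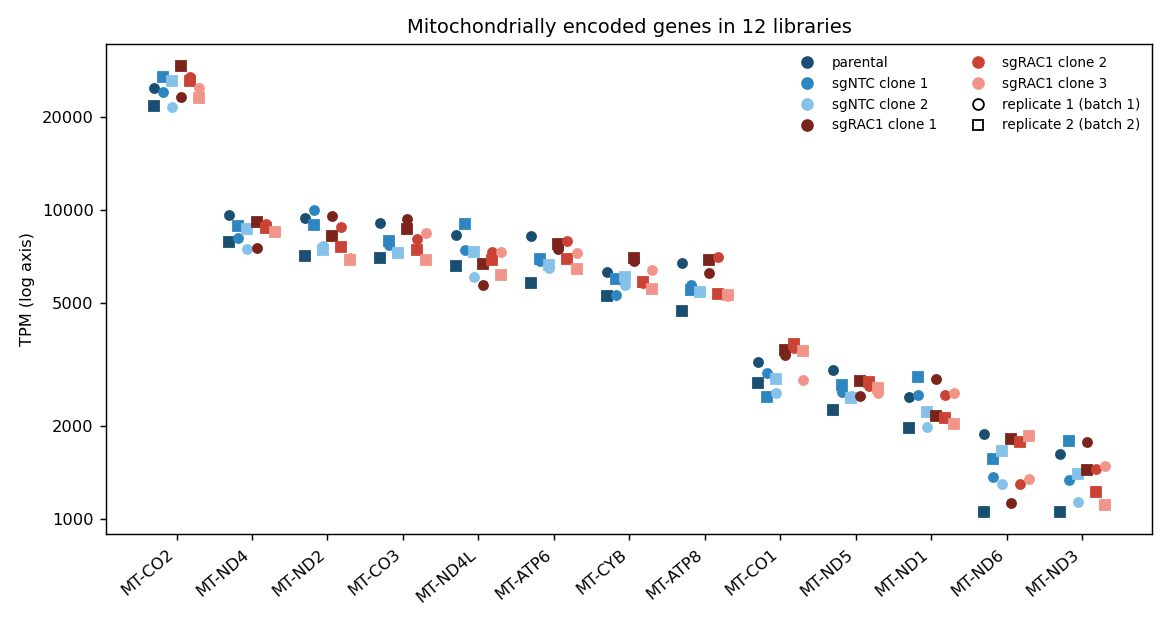
TPM (log axis) of the 13 mitochondrially encoded genes, ordered by median, in each of 12 libraries. Colour gives the line, circles replicate 1 and squares replicate 2. MT-CO2 stands alone between 21562 and 29261 TPM, and MT-ND6 and MT-ND3 lie lowest.

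MT-CO1, the oxygen-reducing core subunit of complex IV, was the mitochondrial member with the largest difference between genotypes. Its level in the knockout libraries was 2830 TPM at the lowest, 3519 at the median and 3701 at the highest, and in the RAC1-positive libraries 2494, 2803 and 3237. The libraries overlapped only through sgRAC1 clone 3 replicate 1, the lowest knockout library, and each knockout line mean lay above each RAC1-positive line mean. The difference was 0.28 on the log2(TPM + 1) scale (SE 0.08), which limma on the line means did not call (adjusted p = 0.232). The authors' deposited table gives MT-CO1 a log2 fold change of 0.27 with an adjusted p of 0.038 and calls it higher. Its difference was 0.16 in batch 1 and 0.41 in batch 2.

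The other 12 mitochondrial members were not called by either source. Their log2 differences ran from -0.15 for MT-ND4L to 0.11 for MT-CYB, the cytochrome b of complex III. Of the 13, 11 had a positive difference, and the median was 0.06, beside 0.02 over all 17367 genes tested. MT-ATP6 and MT-ATP8, both of the proton channel part of complex V, each differed by 0.10 (SE 0.06 and 0.09). All 13 share 1 genome and long precursor transcripts, so they are not independent replicates.

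MT-ND6 is the only mitochondrial member on the minus strand of the mitochondrial genome, and its genotype difference had opposite signs in the batches. In batch 1 the knockout libraries ran from 1131 to 1354 TPM and the RAC1-positive ones from 1305 to 1893. In batch 2 the knockout libraries ran from 1781 to 1853 TPM and the RAC1-positive ones from 1058 to 1666, with no overlap. The log2 difference was -0.26 in batch 1 and 0.37 in batch 2, and the change of 0.63 was not called (limma, adjusted p = 0.912). The sources used here do not say whether counting used strand, and reads from the opposite strand cannot be told apart in MT-ND6 without it.

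Summed levels by complex and genome were close between genotypes. Summed nuclear complex I was 5851 TPM ± 86.4 (SD, n = 3 lines) in the knockout and 6181 ± 44.2 (n = 3) in the RAC1-positive lines, a log2 ratio of -0.08, and the line means did not overlap. The libraries overlapped, from 5501 to 6228 TPM in the knockout and from 5996 to 6403 in the RAC1-positive lines. Nuclear complex V was 5705 ± 42.5 against 5846 ± 55.2 TPM, a log2 ratio of -0.04, again with line means apart and libraries overlapping.

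Line means overlapped in the other nuclear sums. Complex II summed to 855 ± 29.4 against 950 ± 78.4 TPM, complex III to 2053 ± 114 against 2110 ± 164, and complex IV to 3785 ± 210 against 3795 ± 217. For complex III the overlap came through sgNTC clone 2 alone, at 1637 TPM in replicate 1 and 2206 in replicate 2. The parental line and sgNTC clone 1, at 2186 and 2223 TPM, lay above the knockout lines, at 1935 to 2162. Mitochondrial complex IV was 37240 ± 2101 TPM in the knockout and 34788 ± 1171 in the RAC1-positive lines, a log2 ratio of 0.10 with overlapping lines. The 10 nuclear members of complex IV had a log2 ratio of -0.004. NDUFA4, grouped by its name in complex I, is known as a subunit of complex IV: counted there, the log2 ratio was -0.03 for nuclear complex IV and -0.06 for nuclear complex I, whose line means stayed apart. No test was made on these sums, since the members were chosen with earlier results of these data known.

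**Figure D2:**
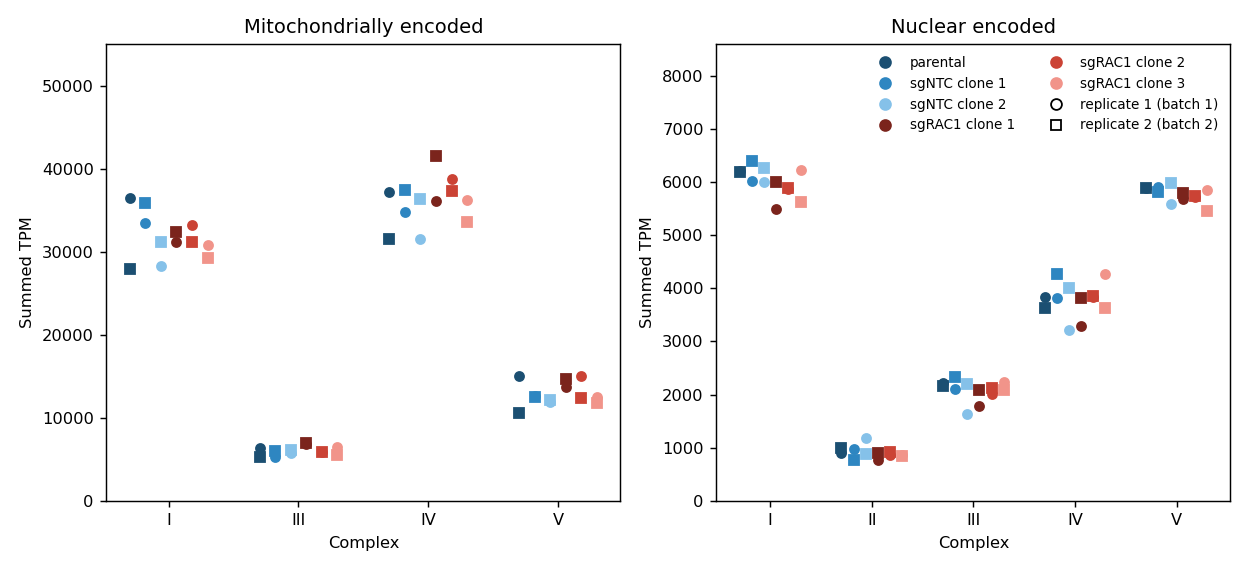
Summed TPM of the members of each complex in each library, from the mitochondrial genome (left) and the nuclear genome (right), with both axes starting at 0. Colour gives the line, circles replicate 1 and squares replicate 2. Nuclear complex I is lower in the line means of the knockout, and sgNTC clone 2 replicate 1 is low for nuclear complex III at 1637 TPM.

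No member was called between genotypes by limma on the line means at an adjusted p of 0.05, where 1 of 17367 genes, RAC1, was called (0.00576%). At an unadjusted p under 0.05 there were 9 of 87 members, beside 13% of all genes tested. When the 12 libraries were fitted with the line as a random block, 369 genes were called (2.12%) and 1 of them was a member, NDUFC1. The within-line correlation in that fit was -0.03, so it treated the libraries of a line nearly as separate replicates. The set-up of the comparison in the authors' deposited table is not stated in the sources used here; RAC1 has a negative value there, so its signs were read as knockout over RAC1-positive. The authors' deposited table called 7 of the 87 members, 1 higher and 6 lower, beside 9.74% of the 15140 genes it compares (5.68% higher and 4.06% lower).

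The differences were small: 72 of 87 members had a log2 difference under 0.25 in size, and 3 were beyond 0.5, NDUFS3, UQCRC1 and NDUFV2, all negative, with UQCRFS1 just inside at -0.50. Without sgNTC clone 2 replicate 1, where NDUFV2 was highest at 9.43 TPM, NDUFV2 was at -0.31, and the 4 members beyond 0.5 were NDUFS3, UQCRC1, UQCRFS1 (-0.57) and SDHA (-0.51). With 1 library or line left out in turn, NDUFS3 ran from -1.02 to -0.52 and UQCRC1 from -1.01 to -0.37. UQCRFS1 ran from -0.69 to -0.31 and SDHA from -0.55 to -0.15. With all libraries, 18.8% of all genes tested lay beyond 0.5. The median log2 difference was -0.05 over the 74 nuclear members, with 30 positive and 44 negative. In 15 members, all nuclear, each knockout line lay below each RAC1-positive line (17.2% of members against 8.52% of all genes tested). In 3 members, MT-CO1, NDUFB11 and COX4I1, each knockout line lay above (3.45% against 12%). Without sgNTC clone 2 replicate 1 these counts were 18 lower (20.7% against 10.2% of all genes tested) and 3 higher (3.45% against 13.7%).

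**Figure D3:**
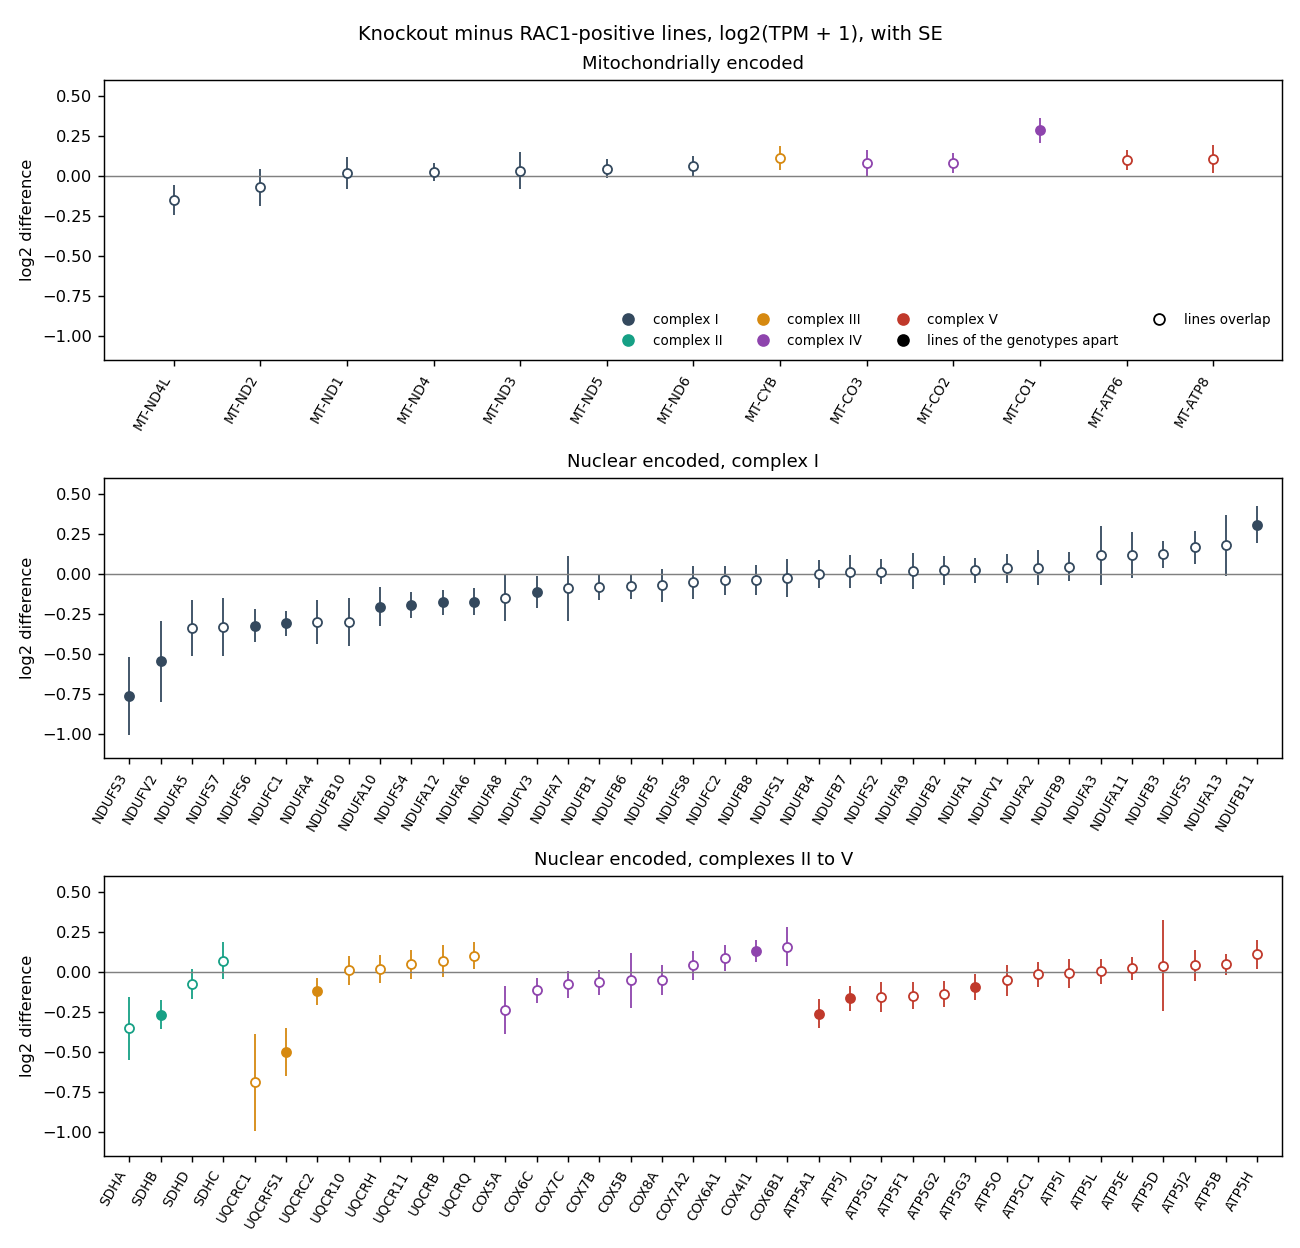
Log2 difference, knockout minus RAC1-positive lines, of all 87 members on the log2(TPM + 1) scale, with SE bars from limma on 3 lines against 3. Colour gives the complex, and filled points mark genes whose line means do not overlap between genotypes. The filled points are 15 below 0 and 3 above it, and NDUFS3 at -0.76 lies lowest.

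NDUFC1, an accessory subunit of the membrane arm of complex I (chromosome 4, 139266880 to 139302551, minus strand), separated the genotypes most cleanly. Its knockout libraries ran from 140 TPM through a median of 161 to 173, and its RAC1-positive libraries from 186 through 194 to 223. All 6 knockout libraries thus lay below all 6 RAC1-positive ones, which held for no other member and for 0.714% of all genes tested. No member had all knockout libraries above (2.14% of all genes tested), and without sgNTC clone 2 replicate 1 NDUFA12, another complex I subunit, also lay below throughout. The difference was -0.31 (SE 0.08), with -0.31 in each batch. Limma gave an adjusted p of 0.210 on the line means, 0.0456 with the line as a random block and 0.069 once the replicate block was added, a fit that called 320 genes (1.84%) and no member. The authors' deposited table gives -0.32 with an adjusted p of 0.0016.

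The other complex I members called lower in the authors' deposited table were NDUFS3 and NDUFS6. NDUFS3, a core subunit of the peripheral arm (chromosome 11, 47565336 to 47584562, plus strand), had 9.98, 19.8 and 31.7 TPM at the lowest, median and highest knockout library and 12.5, 38.9 and 44.3 in the RAC1-positive ones. Over both batches the libraries overlapped widely, with both genotypes low in batch 1 outside the parental line. Each knockout line mean nevertheless lay below each RAC1-positive one. Within batch 2 the knockout libraries ran from 26.1 to 31.7 TPM and the RAC1-positive ones from 36.3 to 44.3, with no overlap. Within batch 1 the ranges were 9.98 to 13.4 and 12.5 to 41.6 TPM, with overlap. The difference was -0.76 (SE 0.24, adjusted p = 0.276 by limma), and the authors' deposited table gives -0.94 with an adjusted p of 0.00027. NDUFS6, an accessory subunit of the same arm (chromosome 5, 1801400 to 1816605, plus strand), ran over 225, 312 and 359 TPM in the knockout and 282, 390 and 448 in the RAC1-positive libraries. Each knockout line mean of NDUFS6 lay below each RAC1-positive one. Its knockout and RAC1-positive libraries ran from 312 to 359 and from 405 to 448 TPM in batch 2, without overlap. In batch 1 they ran from 225 to 312 and from 282 to 375 TPM, with overlap. The difference of NDUFS6 was -0.32 (SE 0.10, adjusted p = 0.267 by limma), and the authors' deposited table gives -0.36 with an adjusted p of 0.020.

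NDUFB11, a membrane arm subunit encoded on the X chromosome, had its knockout lines above the RAC1-positive ones, at 99.7, 108 and 148 TPM in the knockout libraries and 68.5, 95.1 and 110 in the RAC1-positive ones. Its difference of 0.31 (SE 0.12, adjusted p = 0.339 by limma) was 0.50 in batch 1 and 0.11 in batch 2, and sgRAC1 clone 3 replicate 1 was its highest library. The core subunits NDUFS1 and NDUFV1, which carry iron-sulfur clusters and, in NDUFV1, the NADH site, differed by -0.02 (SE 0.12) and 0.03 (SE 0.09). Of the 37 nuclear members of complex I, 14 had a positive and 23 a negative difference. NDUFV2, at 1.36 to 9.43 TPM the lowest member, had a row for its processed copy NDUFV2P1 at a mean of 113 TPM, so its own level of 3.58 TPM is uncertain.

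In complex II, SDHB, the iron-sulfur subunit (chromosome 1, 17018722 to 17054170, minus strand), had 164, 173 and 194 TPM in the knockout libraries and 189, 211 and 255 in the RAC1-positive ones. Only the lowest RAC1-positive library, sgNTC clone 1 replicate 2, fell among the knockout values. The difference was -0.27 (SE 0.09, adjusted p = 0.289 by limma), and the authors' deposited table gives -0.26 with an adjusted p of 0.0056. SDHA, the flavoprotein that oxidises succinate, differed by -0.35 (SE 0.20, adjusted p = 0.485), but by -0.61 in batch 1 and -0.09 in batch 2. SDHA also has a copy in the table, SDHAP3, at a mean of 34.1 TPM beside its own 76.1.

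In complex III, UQCRFS1, the Rieske iron-sulfur protein (chromosome 19, 29205321 to 29213541, minus strand), ran over 34.4, 56.4 and 77.1 TPM in the knockout libraries and 57.4, 77.7 and 95.9 in the RAC1-positive ones. These ranges over both batches overlapped, and the 3 lowest values were the knockout libraries of batch 1. Each knockout line mean lay below each RAC1-positive one. Within batch 1 the knockout libraries ran from 34.4 to 50.5 TPM and the RAC1-positive ones from 57.4 to 84.0, with no overlap. Within batch 2 the ranges were 62.4 to 77.1 and 76.9 to 95.9 TPM, which overlapped slightly. The difference was -0.50 (SE 0.15, adjusted p = 0.256 by limma), and the authors' deposited table gives -0.53 with an adjusted p of 0.0067. UQCRC1, a core protein of the complex, had 53.3, 159 and 238 TPM against 71.1, 252 and 281. Its difference of -0.69 (SE 0.30, adjusted p = 0.393 by limma) came with overlapping lines. The overlap came through sgNTC clone 2, at 71.1 TPM in replicate 1 and 239 in replicate 2. Without sgNTC clone 2 replicate 1 the difference was -0.98. Within batch 2 the knockout libraries ran from 202 to 238 TPM and the RAC1-positive ones from 239 to 281. Within batch 1 the ranges were 53.3 to 116 and 71.1 to 280 TPM, with overlap. UQCRC2, the other core protein, differed by -0.12 (SE 0.08), and by -0.047 without sgNTC clone 2 replicate 1.

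In complex IV, no nuclear member was called by limma or by the authors' deposited table. COX4I1, the regulatory subunit that binds ATP, had 302, 322 and 371 TPM in the knockout libraries and 273, 298 and 319 in the RAC1-positive ones. These ranges overlapped, while the line means did not, and the difference was 0.13 (SE 0.07, adjusted p = 0.477). COX5A differed by -0.24 (SE 0.15).

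In complex V, ATP5A1 (current symbol ATP5F1A, chromosome 18, 46080248 to 46104334, minus strand) encodes the alpha subunit of the catalytic head. It had 167, 169 and 201 TPM in the knockout libraries and 186, 215 and 237 in the RAC1-positive ones. Its libraries overlapped through sgRAC1 clone 1, whose replicates were at 195 and 201 TPM, above sgNTC clone 1 replicate 2 at 186. The difference was -0.26 (SE 0.09, adjusted p = 0.300 by limma), and the authors' deposited table gives -0.27 with an adjusted p of 0.011. ATP5B, the catalytic beta subunit and the most abundant nuclear member at a median of 2082 TPM, differed by 0.04 (SE 0.07). ATP5J, of the stalk that holds the head in place, differed by -0.17 (SE 0.08, adjusted p = 0.411).

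**Figure D4:**
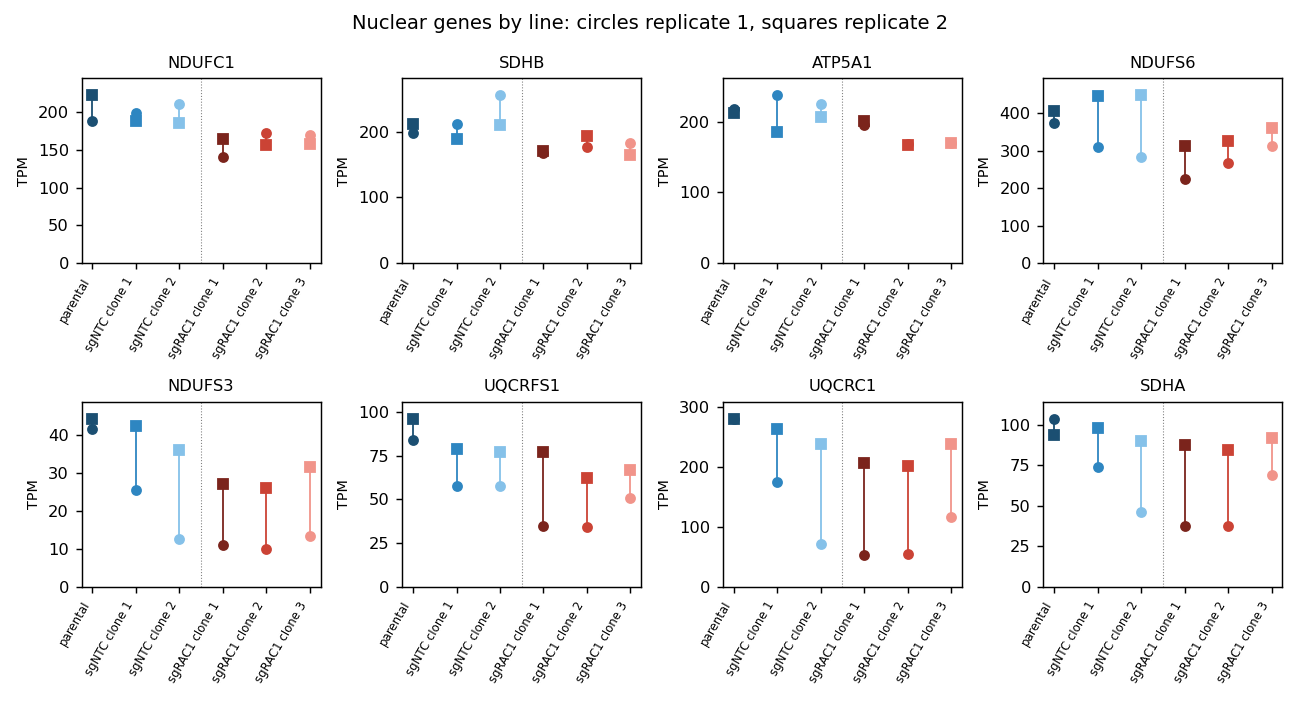
TPM of 8 nuclear genes in each line, with circles for replicate 1 and squares for replicate 2, a line joining the replicates and the axes starting at 0. In the upper row NDUFC1 is lower in all 6 knockout libraries, at 140 to 173 TPM. In the lower row replicate 1 lies below replicate 2 in every line grown from a single cell, for UQCRC1 by as much as 53.3 against 207 TPM in sgRAC1 clone 1.

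Nuclear levels spanned a wide range. The median level of the nuclear members was highest in complex IV, at 362 TPM, followed by 233 in complex V, 184 in complex III, 139 in complex II and 112 in complex I, each over the members of that complex. Of the 74 nuclear members, 49 had a mean of at least 100 TPM and 4 were under 10. The mitochondrial members had means of 1406 to 24950 TPM, and ATP5B, at a mean of 2046 TPM, was the only nuclear member within that range. In 15 nuclear members the highest library was at least 2-fold above the lowest, led by NDUFV2 (6.95-fold), UQCRC1 (5.27-fold) and NDUFS3 (4.44-fold).

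In a few nuclear genes the batches lay as far apart as the genotypes, though not past the test. UQCRC1 was at 280 and 281 TPM in replicates 1 and 2 of the parental line, 174 and 264 in sgNTC clone 1, and 71.1 and 239 in sgNTC clone 2. It was at 53.3 and 207 TPM in sgRAC1 clone 1, 54.8 and 202 in clone 2, and 116 and 238 in clone 3. The low values thus sat in replicate 1 of all 5 lines grown from single cells, of both genotypes, and the parental line had none.

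The same lines were low in replicate 1 for NDUFS3, NDUFB10, UQCRFS1, SDHA and COX5A, except sgRAC1 clone 3 for COX5A, and NDUFS6 was low there in all 5. Across all lines, batch 2 was above batch 1 by 1.00 in NDUFS3 (SE 0.19), 0.53 in NDUFB10 (SE 0.10), 1.19 in UQCRC1 (SE 0.27) and 0.57 in UQCRFS1 (SE 0.13) on the log2 scale. The differences were 0.37 in NDUFS6 (SE 0.09) and 0.66 in SDHA (SE 0.19). Limma with line and batch as terms called none of the 87 members (lowest adjusted p = 0.170, NDUFS3) and 2 of 17367 genes (0.0115%). An unadjusted p under 0.05 was reached by 9 members, beside 8.18% of all genes tested.

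Within the batches, the genotype difference of UQCRC1 was -1.11 in batch 1 and -0.28 in batch 2, that of NDUFS3 -1.01 and -0.52, and that of UQCRFS1 -0.72 and -0.28. By contrast ATP5A1 differed by -0.35 and -0.17, SDHB by -0.33 and -0.21, and NDUFS6 by -0.26 and -0.38. The change of the genotype difference between batches was called in no member and in 0 of 17367 genes (0%), with 724 genes (4.17%) at an unadjusted p under 0.05. In both batches 35 members had a negative difference (24.8% of all genes tested did) and 14 a positive one (30.2%). In sgNTC clone 2 replicate 1, which had the fewest genes above 0, UQCRC1, NDUFS3 and SDHA were low as well. The part of depth or RNA quality in these values was not tested.

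**Figure D5:**
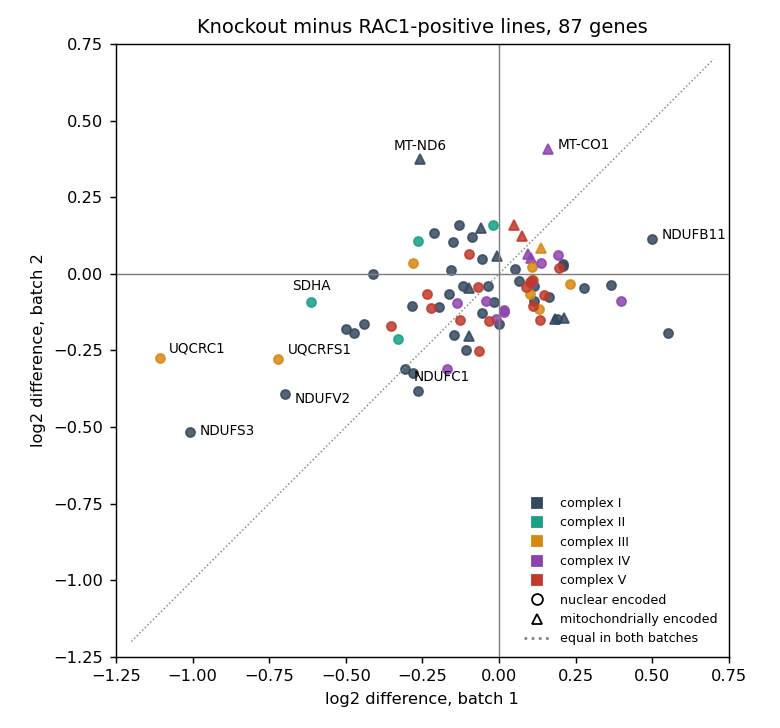
Log2 difference, knockout minus RAC1-positive lines, in batch 1 (x axis) and batch 2 (y axis) for each of the 87 members. Colour gives the complex, circles are nuclear and triangles mitochondrially encoded, and the dotted line marks equal differences. UQCRC1 lies at -1.11 and -0.28, and MT-ND6 at -0.26 and 0.37.

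Single knockout clones were also set against the RAC1-positive lines, with p-values that rest only on how far apart the 2 libraries of each line lie. Limma called no member in sgRAC1 clone 1 (84 genes called, 0.484%), clone 2 (34 genes, 0.196%) or clone 3 (188 genes, 1.08%). These contrasts share their RAC1-positive libraries. An unadjusted p under 0.05 was reached by 8 of 87 members in clone 1 (9.1% of all genes tested), 4 in clone 2 (7.41%) and 8 in clone 3 (12.4%).

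NDUFA4 had the smallest p in clones 1 and 3. Its replicates were at 322 and 307 TPM in sgRAC1 clone 1, 448 and 408 in clone 2, and 327 and 286 in clone 3, beside 378 to 456 in the RAC1-positive libraries. Clone 2 thus lay within the RAC1-positive range and the other knockout clones below it. The differences were -0.44 in clone 1 (adjusted p = 0.136) and -0.48 in clone 3 (adjusted p = 0.0693), and clone 2 differed by 0.004. NDUFA8, a complex I subunit of the intermembrane space, had the smallest p in clone 2 at -0.44 (adjusted p = 0.374).

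Among the RAC1-positive lines, no member was called between sgNTC clone 1 and the parental line (no gene called) or between sgNTC clone 2 and the parental line (2 genes, 0.0115%). Between knockout clones, limma called 0, 9 and 0 genes in clone 1 against 2, 1 against 3 and 2 against 3 (0.0518% for the second), and no member. At an unadjusted p under 0.05 there were 0 members for sgNTC clone 1 against parental (2.93% of all genes tested) and 1 for sgNTC clone 2 (6.7%). Between knockout clones there were 2 in clone 1 against 2 (3.33%), 3 in 1 against 3 (4.3%) and 2 in 2 against 3 (3.32%).

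Genes that build and run the mitochondrial system were read from other lists, and none of them was called by limma on the line means. The mitochondrial ribosomal RNAs are cut from the same long transcripts as the mitochondrial members. MT-RNR1, of the small subunit, had 5869, 6998 and 9904 TPM in the knockout libraries and 3940, 5280 and 5984 in the RAC1-positive ones, with overlap in 1 pair of libraries only. Its difference was 0.52 (SE 0.12, adjusted p = 0.193 by limma), and the authors' deposited table gives 0.51 with an adjusted p of 0.004. MT-RNR2 differed by 0.20 (SE 0.10), with overlapping lines.

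Of 75 mitochondrial ribosomal protein genes tested, 20 had a positive and 55 a negative difference, with a median of -0.08, and the lines were apart in 2 (higher, 2.67% against 12% of all genes tested) and 14 (lower, 18.7% against 8.52%). The authors' deposited table compares 76 genes of this list and called 9 lower and none higher, beside 4.06% lower and 5.68% higher of all genes it compares. MRPL19, of the large subunit, had the smallest p, at 114 TPM ± 0.899 (SD, n = 3 lines) against 158 ± 9.98 (n = 3), a difference of -0.47 (adjusted p = 0.143 by limma).

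Of 28 assembly factors for complexes II to V, 12 had a positive and 16 a negative difference, and the authors' deposited table called 2 higher (5.68% of all genes it compares) and 4 lower (4.06%). COX10, which makes heme O on the way to the heme A of complex IV, had 9.20, 11.2 and 13.8 TPM in the knockout libraries and 17.1, 19.2 and 28.7 in the RAC1-positive ones. COX19, a copper-handling factor of the same complex, had 6.75, 8.22 and 11.2 against 13.3, 14.9 and 18.5 TPM. In both genes all knockout libraries lay below all RAC1-positive ones, as in 0.714% of all genes tested. The differences were -0.79 (SE 0.13, adjusted p = 0.143 by limma) and -0.77 (SE 0.14, adjusted p = 0.146). With the line as a random block both were called, at adjusted p = 0.018 and 0.012, beside 2.12% of all genes tested. That fit treated the libraries of a line nearly as separate replicates. COX15, which turns heme O into heme A, differed by 0.29 (SE 0.09, adjusted p = 0.284).

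Of 13 complex I assembly factors, 2 were called lower in the authors' deposited table (4.06% of all genes it compares), and the median difference of the 13 was -0.01. All 6 genes of mitochondrial DNA copying had a negative difference, as did 8110 of all 17367 genes tested. SSBP1, the single-strand binding protein of that list, differed by -0.33 (SE 0.10, adjusted p = 0.255). Of 7 genes for transcription of mitochondrial DNA, 6 were negative. MTERF3, a repressor of that transcription, differed by -0.50 (SE 0.09, adjusted p = 0.150), and TFAM, the packaging and start factor, by -0.09. The citric acid cycle genes, 13 in all, had a median difference of 0.01. NDUFAB1, the acyl carrier of complex I that the symbol rule does not reach, had 65.5, 129 and 179 TPM against 109, 227 and 378, a difference of -0.87 (SE 0.26, adjusted p = 0.250). CYC1, cytochrome c1 of complex III, differed by -0.29 (SE 0.11).

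Near-identical copies bear on several levels. The table held 32 rows named as copies of nuclear members, of which 15 had a mean of at least 1 TPM, and together they made up 1689 TPM. COX6A1P2 stood at a mean of 1134 TPM beside 541 for COX6A1, and UQCRBP1 at 130 beside 95.5 for UQCRB. The sources used here do not say how reads were shared among copies, so these levels are uncertain. Rows named for the clone RP5-857K21, known to hold a nuclear copy of mitochondrial DNA on chromosome 1, summed to 6415 to 10851 TPM, or 8.29% to 11.8% of the mitochondrial member sum.

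The genes whose levels ran most like the summed mitochondrial members over the 12 libraries were RP5-857K21.10 (Pearson r = 0.946), PRDX1, a peroxiredoxin (0.883), and RP11-490G8.1 (0.793), ranked over 6827 genes. For the nuclear sum they were RP11-296A18.5 (0.943), RPS2 (0.923) and RPS2P46 (0.909). These correlations describe 12 libraries that share lines and batches, and no test was made of them.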

How the data were processed

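Messenger RNA of 6 DU145 lines was measured in 12 libraries. Per the labels' protocols, cDNA was made with SMARTScribe and libraries by tagmentation. STAR 2.6.1d, bcl2fastq, DESeq2 and the build GRCh38 appear in the submitters' processing notes. The sources used here state no counting tool, strand setting or annotation. The authors deposited 1 table with TPM per library, which keeps no depth, so no counting error can be given. For 15140 genes the same table holds, per the file headers, the authors' mean signal of normalized counts, log2 fold change, Wald score, p-value and adjusted p-value.

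The design had allowed for counts. As the unit is TPM, limma 3.58.1 in R 4.3.3 was fitted to the mean log2(TPM + 1) of each line, 3 against 3, with a variance trend, over the 17367 genes whose mean reached 1 TPM in a genotype, and p-values were adjusted by Benjamini-Hochberg over all of them at 0.05. Clone and batch contrasts used all 12 libraries with a mean per line. Fold changes understate those of genes near 1 TPM. SDs are over line means.

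Replicate numbers mark a batch per the labels. Over 15 pairs of lines, same-numbered deviations correlated by -0.126 to 0.296 (median 0.026), and 2 pairs were over 0.1. None of 66 library pairs held identical values. On simulated data, with noise drawn from the spread within lines only, the line-level fit recovered 9.4% of 1.5-fold changes. It recovered 48.8% of 2-fold and 89.2% of 4-fold changes. Spread between clones was left out of the simulation.

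The members, gene lists and tests were chosen with earlier results of these data known. Named were all mitochondrial members, per nuclear complex up to 2 with the smallest p per direction among those with lines apart, those called by limma or in the authors' deposited table (up to 6), and 2 core members per complex at most. NDUFA4, NDUFA8, NDUFA12, NDUFB10, NDUFV2 and the genes of other lists were named after their values were seen. Positions came from GENCODE 29 (GRCh38), promoters from RefSeq. Alternatives covered replication unit, replicate block, scaling, filter, pseudocount, batches and leaving out libraries or lines.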

Additional observations from a re-analysis of the deposited data

Results flagged for a closer look

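In 6 of 80 groups of 6 libraries, 1 library stood far from the other 5 by Dixon's gap test, which chance does in about 5% of groups. Of these, 3 concern sgNTC clone 2 replicate 1, the library with the fewest genes above 0. Its summed nuclear complex III was 1637 TPM, with the other RAC1-positive libraries at 2108 to 2338. Its ATP5B level was 1645 TPM, with the others at 2012 to 2169, and its SDHB level was 255 TPM, with the others at 189 to 212. In sgRAC1 clone 3 replicate 1, NDUFB11 was at 148 TPM, with the other knockout libraries at 99.7 to 111, and MT-CO1 was at 2830 TPM, with the others at 3391 to 3701. In sgRAC1 clone 1 replicate 1, NDUFV1 was at 59.0 TPM, with the other knockout libraries at 68.5 to 73.7.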

How the results depend on the processing

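No member was called on the line means under any of the alternatives run except the line as random block, which called 1, NDUFC1. Of all genes, 369 were called with the line as random block and 320 with the replicate block added, which called no member. The counts were 0 in batch 1 alone and 26 in batch 2 alone. They were 0 under median of ratios and upper quartile scaling, without a level filter and at pseudocount 0.1. Rescaling without the rows of the mitochondrial genome gave 1, a filter of 5 TPM gave 3 and a pseudocount of 5 gave 2. Leaving out 1 library or line gave 0 to 22, with 22 without sgNTC clone 2 replicate 1. The cause was not tested. The block changed no other call of a member.

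Leaving out 1 library or line gave a median log2 difference of -0.024 to 0.14 for mitochondrial and -0.085 to -0.016 for nuclear members. Log2 ratios of summed TPM ran from -0.0055 to 0.11 (mitochondrial), -0.073 to -0.025 (nuclear), -0.10 to 0.025 (complex I, mitochondrial), 0.068 to 0.16 (III), 0.060 to 0.14 (IV), 0.016 to 0.19 (V), -0.10 to -0.054 (I, nuclear), -0.23 to -0.071 (II), -0.10 to 0.027 (III), -0.053 to 0.048 (IV) and -0.052 to -0.018 (V). RAC1 stayed at 23.8% to 28.7% of the RAC1-positive level. Nuclear complex I was -0.057 under upper quartile scaling, -0.051 in batch 1 and -0.11 in batch 2. Nuclear complex II was -0.31 in batch 1 and 0.0097 in batch 2, and complex V was -0.013 under upper quartile scaling, -0.012 in batch 1 and -0.058 in batch 2.

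Of 29 named members, 19 kept 1 sign throughout. In batch 2 alone UQCRC2 was at 0.037, NDUFS1 at 0.10, ATP5B at -0.019, MT-ND1 at -0.15 and MT-ND3 at -0.14, and in batch 1 alone MT-ND4 was at -0.0071, MT-ND5 at -0.060 and MT-ND6 at -0.26. With 1 library or line left out the values ran from -0.11 to 0.061 (NDUFS1), -0.027 to 0.096 (NDUFV1), -0.014 to 0.10 (ATP5B), -0.054 to 0.13 (MT-ND1), -0.15 to 0.025 (MT-ND2), -0.070 to 0.14 (MT-ND3), -0.024 to 0.075 (MT-ND4), -0.027 to 0.12 (MT-ND5) and -0.082 to 0.20 (MT-ND6). The depth behind a TPM value is unknown, and 3 lines against 3 limit what differences of the size seen in most members can be called.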
